A study of Mus musculus with 2 samples.

Results

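miR-203, miR-205, miR-31 and miR-184, a group of miRs known from basal and stratified epithelium, were followed in sperm of naive WT mice. The tables name each mature miR by its hairpin and by the arm of the hairpin, 5p or 3p, from which it is cut. All entries whose name carries 1 of these 4 hairpins were taken, with both arms, which gave 8 of the 1886 entries. The rule matches names, and the group was proposed with earlier results of these data known. Both libraries come from sperm of wild-type C57BL/6J males at 3 months of age, and there is 1 condition, without an EE or HC group. The methods of the study describe them as independent biological replicates and do not say how many males gave sperm to each. The names under which the counts were deposited also hold the string POSTTREAT, which the labels do not explain. Sperm swam out of dissected epididymis and was treated with a detergent buffer to break other cells before RNA isolation. Small RNA-seq gave replicate 1 a depth of 4049599 miR reads and replicate 2 one of 5648067. Levels are given as CPM, the reads of an entry per 1000000 miR reads of the library. The labels name a TruSeq kit for RNA-seq, version 2, and the methods a small RNA library made with a TruSeq kit, and this mismatch was not resolved.

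In the basal layer of stratified and pseudostratified epithelia, such as skin and the lining of ducts, cells rest on the basement membrane and renew the layers above them. miR-203 is known as a skin miR that limits the proliferative state of basal cells and targets the transcription factor p63. miR-205 marks basal cells of skin and glands and, together with the miR-200 family, represses the Zeb factors that break up epithelial junctions. miR-31 is known from keratinocytes and other squamous tissues. miR-184 is known from the epithelium of cornea and lens, and it has also been described in germ cells of the testis. The epididymis, in which sperm mature and are stored, is lined by a pseudostratified epithelium with basal cells.

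The mature sequences of all 8 entries were found in RefSeq (GRCm38.p6). The arms that carried nearly all reads are shown first, each with its seed in capitals, bases 2 to 8 from the 5′ end, through which a miR pairs with its targets.
miR-184-3p: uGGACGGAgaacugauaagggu
miR-205-5p: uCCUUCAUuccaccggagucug
miR-203-3p: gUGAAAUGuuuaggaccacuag
miR-31-5p: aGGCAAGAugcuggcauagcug

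The 4 seeds differ from one another, and none of the 8 arms shares its seed with any other mature miR of the RefSeq table. An unshared seed was common there, as 72.1% of 1679 mature miRs had one. Each of the 4 leading arms is 22 bases long. Whether their sequences affected how readily they entered the libraries was not tested. CPM values of different miRs therefore compare reads and not molecules. miR-184-3p and miR-205-5p begin with U, miR-203-3p with G and miR-31-5p with A. Their GC content was 50.0% in miR-184-3p, 54.5% in miR-205-5p, 40.9% in miR-203-3p and 54.5% in miR-31-5p. No stretch of 15 bases, the shortest read kept by the authors, was shared on the same strand with another mature miR of the RefSeq table. On the opposite strand, miR-203-3p and miR-203-5p each shared such a stretch with 1 mature miR, an arm of miR-203b. Of the 1886 entries, 1608 had every name in RefSeq, so some counted miRs were not compared. Other kinds of small RNA were not checked.

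The hairpins are shown whole because nearly all reads of each came from 1 of its arms, with both mature arms in capitals.
Mir184: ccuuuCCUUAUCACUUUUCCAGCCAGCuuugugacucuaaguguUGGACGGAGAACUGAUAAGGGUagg
Mir205: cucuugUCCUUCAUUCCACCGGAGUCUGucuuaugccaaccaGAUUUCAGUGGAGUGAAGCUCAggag
Mir203: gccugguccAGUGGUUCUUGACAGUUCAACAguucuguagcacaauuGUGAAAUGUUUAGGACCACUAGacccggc
Mir31: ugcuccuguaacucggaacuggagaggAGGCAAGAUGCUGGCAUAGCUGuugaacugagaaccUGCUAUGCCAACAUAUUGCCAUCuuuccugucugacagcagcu

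The hairpins lie on 4 different chromosomes of GRCm38, and no 2 of them form a cluster. Mir184 (ENSMUSG00000065596.1) spans chr9:89802260-89802328 on the minus strand between annotated genes of GENCODE M21, and the lincRNA 1700017I07Rik starts 542 bases beyond it on the other strand. Mir203 (ENSMUSG00000065574.1) spans chr12:112130880-112130955 on the plus strand, also between genes, 3321 bases beyond the end of the protein-coding gene Aspg. Mir205 (ENSMUSG00000065533.1) spans chr1:193507463-193507530 on the minus strand within exon 2 of 2 of the lincRNA 4631405K08Rik, on the same strand. Mir31 (ENSMUSG00000065408.1) spans chr4:88910557-88910662 on the minus strand within exon 3 of 3 of the lincRNA AL805899.1, on the same strand. The pair in lincRNA exons, miR-205 and miR-31, did not share a direction between the libraries, with miR-205-5p higher in replicate 2 and miR-31-5p higher in replicate 1.

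A second hairpin, miR-203b, is transcribed from the opposite strand of the Mir203 locus. Its 5p arm, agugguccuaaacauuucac, is the exact reverse complement of 20 bases of miR-203-3p, and its 3p arm overlaps miR-203-5p by 20 bases. The count tables list 0 entries for miR-203b. How strand was handled in the counting is not given in the sources used here, so reads of the 2 strands may have been joined under miR-203.

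Both sperm libraries held reads of a leading arm of all 4 hairpins, at levels from 8.32 to 616 CPM. Whether these reads came from sperm or from other cells of the epididymis was not tested. Of the 8 arms, 5 had at least 1 read in each library, 1 had reads in only 1 library and 2 had none. Over all 1886 entries, 20.0% had at least 1 read in each library.

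miR-184-3p was the most abundant by the mean of the libraries. Its 2495 reads in replicate 1 equal 616 CPM, with a Wilson 95% interval of 592 to 641 CPM, and its 1176 reads in replicate 2 equal 208 CPM (197 to 220), with a mean of 412 ± 288 CPM (SD, n = 2 libraries). It ranked 42nd by mean CPM among the 378 entries with a read in each library, whose median was 7.02 CPM.

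For miR-205-5p, replicate 1 held 557 reads at 138 CPM (127 to 149) and replicate 2 held 1547 reads at 274 CPM (261 to 288). Its mean was 206 ± 96.4 CPM (SD, n = 2), rank 56 of 378. Unlike miR-184-3p, it was higher in replicate 2.

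miR-203-3p was counted 160 times in replicate 1, at 39.5 CPM (33.8 to 46.1), and 195 times in replicate 2, at 34.5 CPM (30.01 to 39.7). It was the steadiest of the leading arms, with a mean of 37.0 ± 3.52 CPM (SD, n = 2), rank 114 of 378, and its intervals overlap.

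miR-31-5p was the least abundant leading arm. Replicate 1 held 156 of its reads at 38.5 CPM (32.9 to 45.1) and replicate 2 held 47 at 8.32 CPM (6.26 to 11.1), with a mean of 23.4 ± 21.4 CPM (SD, n = 2) and rank 128 of 378. In replicate 1 its level could not be told from that of miR-203-3p by counting error, whereas in replicate 2 it lay well below.

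The order by mean was thus miR-184-3p, miR-205-5p, miR-203-3p and miR-31-5p. Neighbours in this order were not separated by more than the replicates differed in 2 places, since the values of miR-184-3p and miR-205-5p overlapped, and so did those of miR-203-3p and miR-31-5p. The pair of miR-184-3p and miR-205-5p lay above the pair of miR-203-3p and miR-31-5p in each library. The intervals cover counting error only, since without molecular identifiers PCR copies cannot be told from separate RNA molecules.

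**Figure D1:**
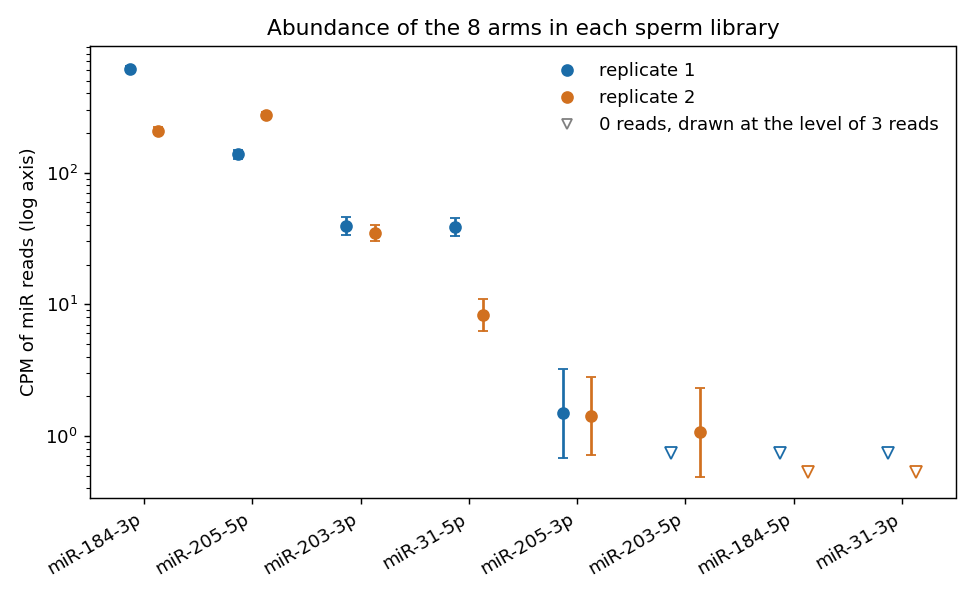
CPM of miR reads (log axis) of the 8 arms in replicate 1 (blue) and replicate 2 (orange), with Wilson 95% intervals; open triangles mark 0 reads and are drawn at the level of 3 reads. miR-184-3p (616 and 208 CPM) and miR-31-5p (38.5 and 8.32 CPM) were higher in replicate 1, miR-205-5p (138 and 274 CPM) was higher in replicate 2, and miR-203-3p was nearly level.

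Each hairpin was read almost entirely from 1 arm, the 3p arm for miR-184 and miR-203 and the 5p arm for miR-205 and miR-31. When a hairpin is processed, usually 1 arm is loaded into an Argonaute protein and kept and the other is degraded. For miR-184 the 3p arm had all 2495 and all 1176 reads. The 0 reads of miR-184-5p allow a share of the hairpin of up to 0.120% in replicate 1 and 0.255% in replicate 2, taking 3 reads as the limit. For miR-31 the 5p arm had all 156 and all 47 reads, and with so few reads the limit for miR-31-3p was wider, up to 1.92% in replicate 1 and 6.38% in replicate 2. On the CPM scale, 0 reads allow up to 0.741 CPM in replicate 1 and 0.531 CPM in replicate 2.

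The other arm was seen for miR-205 and miR-203. miR-205-3p had 6 reads in replicate 1 and 8 in replicate 2, or 1.48 and 1.42 CPM, so that miR-205-5p made up 98.9% (97.7% to 99.5%) and 99.5% (99.0% to 99.7%) of the reads of its hairpin. miR-205-5p was nearly 2-fold higher in replicate 2 while miR-205-3p was level, but its few reads leave a log2 ratio between -1.78 and 1.74 within counting error, which includes that of miR-205-5p. miR-203-5p had 0 reads in replicate 1 and 6 in replicate 2, or 1.06 CPM. That is 2.99% of the miR-203 reads of replicate 2 (1.38% to 6.36%), while 0 of 160 reads in replicate 1 allow up to 1.88%. The difference in arm use rests on these 6 reads and was not tested.

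Together the 4 hairpins gave 3374 reads in replicate 1 and 2979 in replicate 2. That is 0.0833% and 0.0527% of the miR reads, or 833 and 527 CPM, a mean of 680 ± 216 CPM (SD, n = 2). Their makeup differed between the libraries. miR-184 took 73.9% of these reads in replicate 1 (Wilson 95% interval 72.4% to 75.4%) and 39.5% in replicate 2 (37.7% to 41.2%). miR-205 took 16.7% in replicate 1 (15.5% to 18.0%) and 52.2% in replicate 2 (50.4% to 54.0%). The leading hairpin was thus miR-184 in replicate 1 and miR-205 in replicate 2. miR-203 took 4.74% and 6.75%, and miR-31 took 4.62% and 1.58%. Without miR-184 the sum of the other 3 hairpins was 217 CPM in replicate 1 and 319 in replicate 2, so the direction of the sum rests on miR-184.

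**Figure D2:**
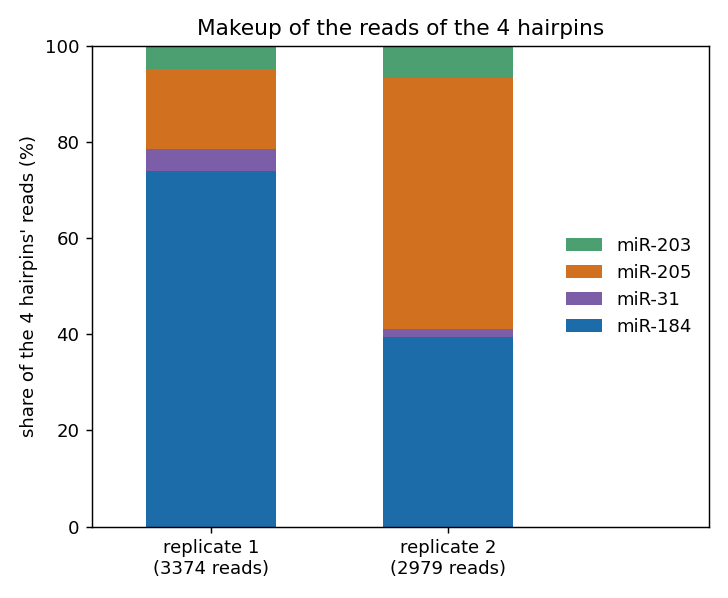
Share of the reads of the 4 hairpins (%, both arms) taken by each hairpin in replicate 1 (3374 reads) and replicate 2 (2979 reads). miR-184 takes 73.9% of the left bar and 39.5% of the right one, and miR-205 takes 16.7% and 52.2%.

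Ratios between these miRs within a library do not depend on how the library is scaled. miR-184-3p had 4.48 times the reads of miR-205-5p in replicate 1 and 0.760 times in replicate 2, a change of 5.89-fold and the single pair of the 6 whose order turned. The ratio of miR-205-5p to miR-31-5p differed most, at 3.57 in replicate 1 and 32.9 in replicate 2, a change of 9.22-fold. By contrast miR-184-3p and miR-31-5p kept to each other most closely, with 16.0 reads of miR-184-3p per read of miR-31-5p in replicate 1 and 25.02 in replicate 2, a change of 1.56-fold. The other 3 pairs changed by between 2.28-fold and 4.05-fold.

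The differences between the libraries were then set beside those of all entries. They compare 2 libraries of 1 condition, with no replicate on either side, and so carry no test. Log2 ratios of replicate 2 to replicate 1 were taken on CPM + 0.5 for the 323 entries whose reads in the libraries added up to 10 or more, which included 5 of the 8 arms. Of the 323 entries 65.9% were lower in replicate 2, with a median log2 ratio of -0.26, and the quartiles were -0.80 and 0.15. miR-31-5p had a log2 ratio of -2.15 (counting interval -2.71 to -1.73) and was the 9th lowest of the 323. It had 4.63 times more CPM in replicate 1. miR-184-3p had a log2 ratio of -1.56 (-1.67 to -1.46), the 26th lowest, with 2.96 times more CPM in replicate 1. miR-205-5p had a log2 ratio of 0.99 (0.85 to 1.14), the 26th highest. miR-203-3p, at -0.19 (-0.50 to 0.12), and miR-205-3p, at -0.05, lay between the quartiles.

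At least 2-fold lower in replicate 2 were 2 of the 5 arms, miR-31-5p and miR-184-3p, where 20.1% of all entries were. None of the 5 arms was at least 2-fold higher, where 7.43% of all entries were, with miR-205-5p just under the limit at 1.99-fold. In either direction, 27.6% of all entries passed 2-fold. Scaling the libraries by TMM, which estimates a common shift from the bulk of the entries, added 0.33 to every log2 ratio before the pseudocount, and the size factors of DESeq2 added 0.28. Under TMM the median of all entries was 0.04, and the split of entries past 2-fold moved from 65 lower and 24 higher to 40 lower and 33 higher. Under both scalings miR-31-5p and miR-184-3p remained more than 2-fold lower, at -1.83 and -1.23 with TMM, and miR-205-5p passed 2-fold, at 1.32. The direction of miR-203-3p depended on the scaling, as it was -0.19 on the CPM scale, 0.13 with TMM and 0.09 with the DESeq2 size factors. Relative to the median of all entries, miR-31-5p was at -1.88, miR-184-3p at -1.30, miR-203-3p at 0.07 and miR-205-5p at 1.25 on the log2 scale.

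**Figure D3:**
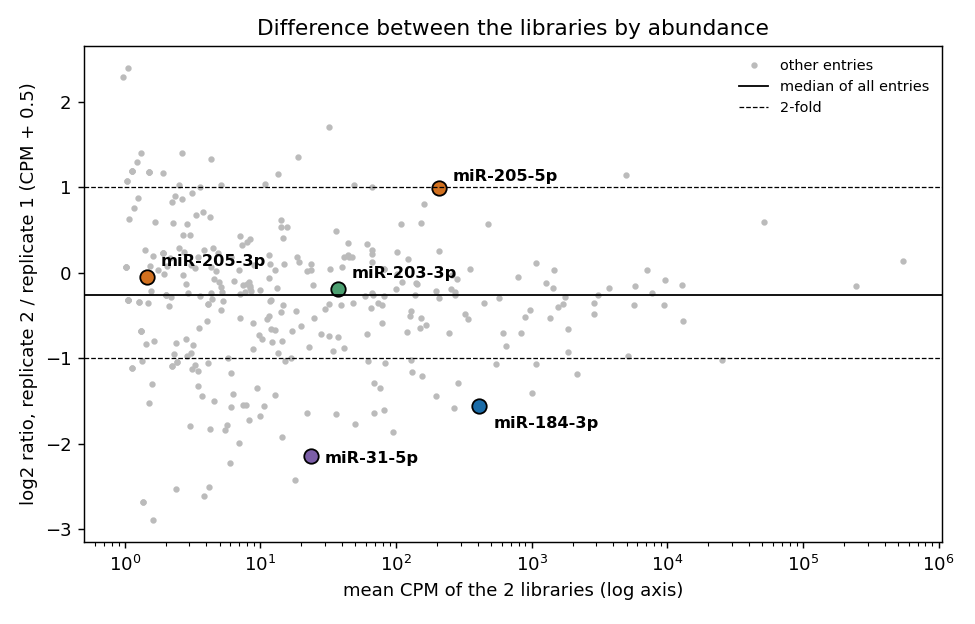
Log2 ratio of replicate 2 to replicate 1 (CPM + 0.5) against the mean CPM of the libraries (log axis) for 323 entries, with the arms of miR-203, miR-205, miR-31 and miR-184 in color, the median of all entries as a solid line and 2-fold as dashed lines. miR-31-5p (-2.15) and miR-184-3p (-1.56) lie below the lower dashed line, miR-205-5p (0.99) lies at the upper one, and miR-203-3p (-0.19) lies near the median of -0.26.

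For each leading arm the 2 other entries nearest in level over both libraries were listed, by the distance of their log2(CPM + 0.5) values. With 2 libraries such likeness is a description only. The nearest to miR-203-3p were miR-501-3p, with 44.4 and 34.2 CPM (distance 0.169), and miR-150-5p, a lymphocyte miR, with 39.3 and 41.1 CPM (0.248). The nearest to miR-205-5p were miR-145a-5p, a smooth muscle miR, with 116 and 203 CPM (0.496), and the joined entry of miR-199b-3p and miR-199a-3p, known from stromal cells, with 190 and 226 CPM (0.539). The nearest to miR-31-5p were miR-878-5p, with 33.6 and 10.4 CPM (0.367), and miR-18a-5p of the miR-17-92 cluster, with 30.6 and 5.31 CPM (0.685). For miR-184-3p they were miR-9-5p, best known from neurons, with 408 and 166 CPM (0.676), and let-7d-5p, with 400.3 and 275 CPM (0.741). No entry lay as close to miR-184-3p, miR-205-5p or miR-31-5p as miR-501-3p lay to miR-203-3p.

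As a sum, the other general epithelial miRs were more abundant, led by miR-141-3p. Over all entries 20.0% had reads in both libraries. The miR-200 family (miR-200a, miR-200b, miR-200c, miR-141 and miR-429), which maintains epithelial identity, had them on 9 of its 10 arms. Its arms summed to 10634 CPM in replicate 1 and 8548 in replicate 2, of which miR-141-3p made up 8365 and 7077 CPM. Not every arm of the family had a higher mean than miR-184-3p. The means of miR-200a-3p, at 252 ± 23.99 CPM (SD, n = 2), and miR-200b-3p, at 150 ± 46.9 CPM, were lower. For miR-200a-3p this order held in replicate 1 only, at 269 CPM against 616. In replicate 2 miR-200a-3p had 235 CPM and miR-184-3p 208. The 4 hairpins together reached 7.84% of the sum of the family in replicate 1 and 6.17% in replicate 2. Without miR-141-3p the sum of the family was 2269 and 1471 CPM, and the 4 hairpins reached 36.7% and 35.9% of it. Hairpin by hairpin, miR-203 kept its proportion to the family most closely, at 0.372% and 0.416%, whereas miR-205 was at 1.31% and 3.22%, miR-31 at 0.362% and 0.0973%, and miR-184 at 5.79% and 2.44%. Of the 8 arms of the family with at least 10 reads, 7 were lower in replicate 2, as were 65.9% of all entries, and none passed 2-fold in either direction, where 27.6% of all entries did. Their median log2 ratio was -0.44, and -0.11 with TMM, where 4 were lower and 4 higher.

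Marker miRs of other cell types differed between the libraries as well, and their part in the differences was not tested. In bulk RNA, fewer cells of a type and less RNA per cell cannot be told apart. The list for germ cells held 29 entries for 19 names. Of the entries, 16 had reads in both libraries, where 20.0% of all entries did, and 7 names were at 0 in both. The list summed to 5695 CPM in replicate 1 and 2308 in replicate 2, with miR-34c-5p, a miR of spermatogenesis, at 2983 and 1314 CPM. All 17 germ-cell entries with at least 10 reads were lower in replicate 2, 15 of them at least 2-fold, with a median log2 ratio of -1.42, where 65.9% of all entries were lower and 20.1% at least 2-fold. With TMM, 16 of the 17 were lower and 11 at least 2-fold, where 47.4% of all entries were lower and 12.4% at least 2-fold. On the CPM scale miR-184-3p and miR-31-5p, at -1.56 and -2.15, lay below 0, as did miR-203-3p (-0.19) and 65.9% of all entries. So did the sums of the germ-cell list (-1.30), of glandular epithelium (-0.51) and of the miR-200 family (-0.31). With TMM the sum of the miR-200 family was 0.02. A shared side of 0 is thus a weak likeness.

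miR-205-5p, at 0.99, lay on the side of the lists for blood and for smooth muscle and stroma. Of the 9 blood entries with at least 10 reads, 8 were higher in replicate 2 and 4 at least 2-fold, with a median log2 ratio of 0.9996, where 34.1% of all entries were higher and 7.43% at least 2-fold. The 4 were miR-144-3p (1.71), miR-144-5p (1.35), miR-486a-3p (1.19, at a mean of 1.13 CPM) and the joined entry of miR-486b-5p and miR-486a-5p (1.15). The median was that of miR-451a. By contrast miR-142a-5p (0.24), miR-142a-3p (0.07) and miR-150-5p (0.06) were nearly level on the CPM scale, and miR-223-3p (-0.67) was lower. These 3 nearly level entries still lay above the median of all entries, -0.26. The difference was thus uneven over the list. With TMM the blood median was 1.33, with 8 of the 9 higher and 5 at least 2-fold. Of all entries, 52.6% were higher with TMM and 10.2% at least 2-fold. The blood list, led by the joined entry of miR-486b-5p and miR-486a-5p of red cells, summed to 3327 CPM in replicate 1 and 7224 CPM in replicate 2 over 12 entries, 9 of them with reads in both. The erythrocyte marker entry alone gave 3104 and 6891 CPM. All 8 entries of smooth muscle and stroma with at least 10 reads were higher in replicate 2, with a median of 0.56. On the CPM scale 1 of them was at least 2-fold higher, where 7.43% of all entries were. With TMM 2 of the 8 were, where 10.2% of all entries were. The list of smooth muscle and stroma had reads in both libraries on 8 of 10 entries. It summed to 41332 and 62579 CPM, nearly all of it miR-143-3p, and miR-145b was at 0. The list for glandular epithelium (miR-192, miR-194, miR-215 and miR-375) summed to 2759 and 1942 CPM, led by miR-375-3p, and its 3 entries with at least 10 reads were lower, 1 of them at least 2-fold on the CPM scale and 0 with TMM or DESeq2 size factors. Skeletal muscle markers were scarce, at 22.2 and 23.9 CPM over 7 entries, of which 2 had reads in both libraries, and miR-133b was at 0. Over all entries 20.0% had reads in both libraries, the share to set beside these counts of the lists. The 4 leading arms thus lay on both sides of 0, as did the lists.

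**Figure D4:**
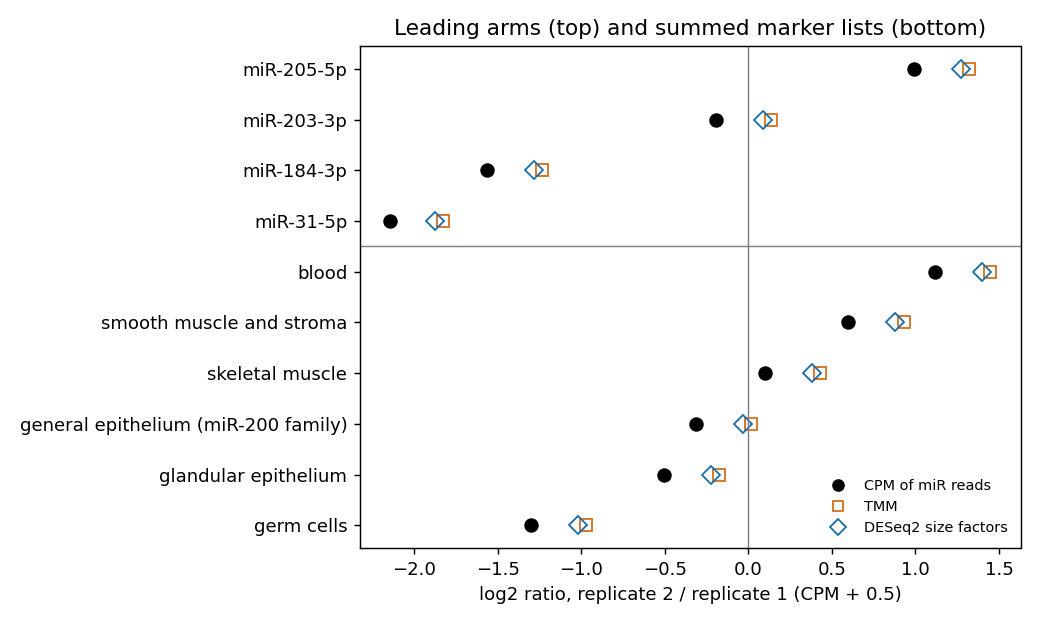
Log2 ratio of replicate 2 to replicate 1 (CPM + 0.5) of the 4 leading arms and of the summed CPM of 6 marker lists, on the CPM scale (filled circles), with TMM (squares) and with DESeq2 size factors (diamonds). miR-205-5p lies with the blood list (1.12) and the list of smooth muscle and stroma (0.60) to the right of 0, miR-184-3p and miR-31-5p lie to the left of 0, as do the germ-cell list (-1.30) and the list of glandular epithelium (-0.51), and miR-203-3p and the miR-200 family change side or come close to 0 with the scaling.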

How the data were processed

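The authors trimmed reads by quality, removed adapters with cutadapt 1.8.1, kept reads of at least 15 bases and mapped them with Bowtie 1.1.2, first without mismatches to miR and piRNA sequences. The labels also name HTSeq and the builds mm10 and GRCm38. Later mapping steps, the last of them to the mouse genome, allowed a mismatch. Which step gave the deposited counts is not stated, so whether reads with edited or tailed ends were left out is not known. They deposited whole-number read counts per mature miR for each library, without normalization. The 5 summary entries that name no miR, of which the unassigned reads made up 38.1% and 26.3% of all listed reads, stayed out of the totals.

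The members and lists were chosen with earlier results of these data known. CPM, Wilson 95% intervals per library, and exact (Clopper-Pearson) counting intervals of ratios were computed with Python 3.11.15 and scipy 1.17.1. With 1 condition and 2 libraries no test was run, and no p-value is given. By rule, named entries were both arms of the 4 hairpins, the 2 entries nearest to each leading arm, entries with a shared seed, miR-203b, and the most abundant entry of each marker list except skeletal muscle. Outside this rule, with their values known, miR-200a-3p, miR-200b-3p, miR-145b, miR-133b and the blood entries with at least 10 reads were named. TMM (edgeR 4.0.16) and DESeq2 1.42.0 size factors were alternatives. The ratio computation was tested on simulated counts.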

Additional observations from a re-analysis of the deposited data

How the results depend on the processing

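The summed abundance of the 4 hairpins, 680 CPM, was 452 CPM of all listed reads, 3236 CPM without the 2 most abundant miRs in the denominator, and 268 CPM without miR-184, an alternative chosen after seeing the data. With TMM, DESeq2 size factors or the leading arms alone it stayed within 1 SD. The log2 ratio of this sum, -0.66, was -0.41 over all listed reads, -0.50 without the 2 most abundant miRs, -0.33 with TMM and -0.38 with DESeq2 size factors, and it turned to 0.56 without miR-184. With TMM and DESeq2 size factors miR-203-3p turned to 0.13 and 0.086, and miR-205-3p, of 14 reads in all, to 0.20 and 0.16. A pseudocount of 0 or 5 turned no arm. Of the 5 arms with a read in each library, 3 had at least 100 reads in each. The share of all entries at that limit was not computed, so this count is a description only. The 4 hairpins reached 7.003% of the miR-200 family on average and 36.3% without miR-141-3p. Where no construction shows it, the cause was not tested. With 1 library left out, the sum lay between 527 and 833 CPM, the arms with reads between 5 and 6, the leading arm share of miR-203 between 97.0% and 100% and of miR-205 between 98.9% and 99.5%, those of miR-31 and miR-184 at 100%, and the proportion to the miR-200 family between 6.17% and 7.84%. These ranges are the library values themselves. No paired analysis was possible because there is 1 group.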
